A study of Mus spretus with 19 samples.

Results

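Gene expression in the livers of male Algerian mice (Mus spretus) living on phosphogypsum stacks (PS) was compared with that of male mice of the same species from the Santa Olalla lagoon (SOL). The comparison uses the 4 arrays titled as polluted PS liver and the 4 titled as unpolluted SOL liver, 8 of the 19 arrays of the series. The animals were wild and carried no transgene or experimental treatment named in the labels, which give no age. Phosphogypsum is the solid residue of phosphate fertilizer production. The other 11 arrays hold livers of male mice from the lower (DR1), medium (DR4) and upper (DR6) course of the Domingo Rubio stream, labelled as polluted, and are given here only as side values. At each of the 5 sites the RNA of 9 livers was combined into 1 pool, labelled with Cy3 and measured again on each array of that site. Repeat arrays of a site thus share their RNA. Each p-value below sets a difference beside the technical variation of labelling and hybridizing 1 pool, and says nothing of how much single mice vary. Each site had 1 slide and 1 scan of its own, so that site, pool, slide and scan cannot be told apart. The probes were designed for Mus musculus, and the effect of sequence differences in M. spretus was not tested.

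The liver makes cholesterol from acetyl-CoA through the mevalonate pathway, and sterol-regulated transcription factors of the SREBP family raise the genes of this pathway when the sterol content of the cell is low. The same family, with insulin- and carbohydrate-responsive factors, drives the genes of fatty acid synthesis. Hepatocytes also secrete acute phase proteins when inflammatory cytokines reach them, bind metals with metallothioneins and clear foreign chemicals with cytochrome P450 and conjugation enzymes. Many of these genes differ between male and female mice through the pattern of growth hormone release.

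A level is the log2 signal of a probe minus the 75th percentile of its array, so that a level of 0 is the brightness that 75% of the spots of the array do not exceed. A difference is the mean PS level minus the mean SOL level, with the standard error (SE) of limma's fit over all 19 arrays. A gene was called where the adjusted p was under 0.05 and the difference at least 1 on the log2 scale, which is a 2-fold change. "Rose" and "fell" stand below for called genes, at PS relative to SOL, and name no order in time. The signal at the 75th percentile was 99.5 to 167 on the SOL arrays and 159 to 182 on the PS arrays. Between 52.0% and 56.3% of the SOL spots and between 54.2% and 56.2% of the PS spots were well above background. Across genes, arrays of the same site correlated at 0.980 to 0.997 and PS arrays with SOL arrays at 0.967 to 0.984, where genes are not independent replicates. Of 13 measured hepatocyte markers, 1 fell and none rose, with a median difference of -0.14. Their median level was 7.19 at SOL and 7.29 at PS, so both pools carried the label's tissue. In such bulk RNA, fewer cells of a type and less RNA per cell cannot be told apart.

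The array of SOL replicate 1 had a low patch. Of 7988 genes with a mean SOL level over 0, 297 were dimmer on this array by over 1 log2 unit than the median of the other SOL arrays. The same count was 6, 4 and 0 for SOL replicates 2, 3 and 4, and at most 2 of 8037 genes for any PS array. The box drawn to enclose all 297 spots spans rows 245 to 288 and columns 13 to 74 of the grid of 532 rows and 85 columns. In that box the bright genes of SOL replicate 1 differed from the other SOL arrays by a median of -1.44, and outside it by 0.08. The box holds the probes of 67 called genes, 51 higher and 16 lower at PS. With its spots on SOL replicate 1 set missing, a choice made after the data were seen, 706 genes were called, of which 698 were among the calls made with them.

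**Figure D1:**
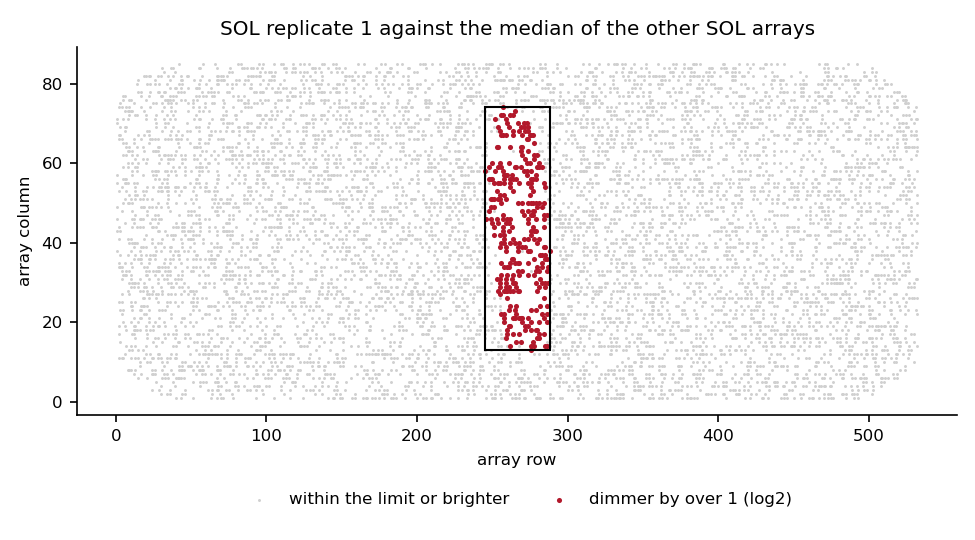
Position on the array (row against column, in spots) of the 7988 genes bright at SOL, with genes dimmer by over 1 log2 unit on SOL replicate 1 than on the other SOL arrays in red and the box that encloses them drawn. The box was set by the 297 such genes and spans rows 245 to 288 and columns 13 to 74.

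Between the PS and SOL pools, 722 of 16346 genes tested were called (4.42%), 365 higher at PS (2.23%) and 357 lower (2.18%). A symbol was given in the files for 488 of them. The median difference of all tested genes was -0.01 and the median absolute difference 0.214, against a median SE of 0.107. On the PS and SOL arrays 36.9% of the tested genes did not overlap, so that non-overlap alone is common between these 2 slides. A change of over 4-fold was measured or fitted for 138 genes, 62 higher and 76 lower. In 185 called genes 1 site was not well above background or was saturated, and for these a fold is given as a bound. The bound is the mean of the brighter site over the dimmer, where each array of the dimmer site takes the higher of its lowest signal well above background and the signal of the probe. In 16 called genes neither site was above background, and of these only Brca1 and Pcsk1 are named below, to account for the counts of their lists. By the adjusted p alone, with no limit on size, 5364 genes (32.8%) passed, so the limit on size sets the number of calls. The number of calls depended on the background correction, which was changed only together with quantile scaling. With the normexp method, which adds an offset of 50 to every signal, followed by quantile scaling, both meant by "normexp" below, 196 genes were called, 84 higher and 112 lower, and 189 of them were among the 722. Quantile scaling alone gave 722 calls, 669 of them shared. Calls of bright genes were lost with normexp too, such as that of Fads1 at a mean SOL level of 4.93. The Fads1 probe lies in the low patch, and the part of the patch in this loss was not tested.

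**Figure D2:**
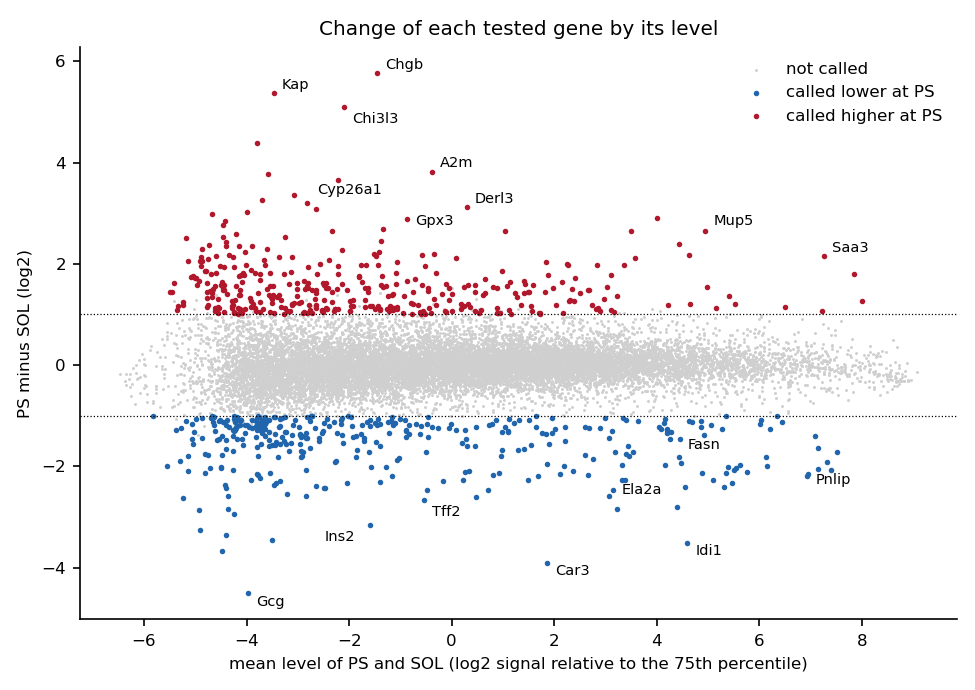
Mean level over PS and SOL (log2 signal minus the 75th percentile, horizontal axis) against the PS minus SOL difference (log2, vertical axis) of each of the 16346 tested genes, with called genes coloured and dotted lines at 1 and -1. The 365 genes called higher and 357 called lower spread over the whole range of levels.

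The genes of cholesterol synthesis fell together. Of the 22 measured, 16 fell at PS and none rose, beside 2.18% of all tested genes called lower, and their median difference was -1.89 against -0.01 for all genes. Their median level was 2.70 at PS, 4.36 at SOL, 4.69 at DR1, 4.77 at DR4 and 5.02 at DR6, so PS was the site that stood apart. Against the mean of the stream pools the same list had 16 members lower at PS (3.19% of all tested genes) and none called in either direction at SOL. These comparisons share arrays with each other and are values side by side, not separate evidence.

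Idi1, the isomerase that makes the branched building blocks of all sterols and isoprenoids, moved farthest. Its level was 6.36, 6.25, 6.39 and 6.36 on the SOL arrays and 2.87, 2.79, 2.88 and 2.79 on the PS arrays. The groups lay far apart, with a spread within each site of a small part of the gap. The difference was -3.51 ± 0.07 (SE), 11.4-fold, with an adjusted p of 1.48e-14, and the stream means of 6.08, 5.76 and 5.85 lay near the SOL level. The array annotation places the probe of Idi1 on another chromosome than the gene is known on. What this probe binds was not tested.

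The early steps build mevalonate. Hmgcs1, the cytosolic HMG-CoA synthase, had levels of 6.48, 6.39, 6.54 and 6.80 at SOL and 4.42, 4.36, 4.67 and 4.64 at PS, a difference of -2.03 ± 0.10 (adjusted p 1.91e-10). No array of one site lay within the range of the other. The kinases Mvk (-1.68) and Pmvk (-1.80) and the decarboxylase Mvd (-1.36), which carry mevalonate on to the isoprenoid units, fell by similar amounts, Mvd with no call under normexp. Acat2, the thiolase at the entry of the pathway, differed by -0.26 and was not called.

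The enzymes that join isoprenoid units into squalene and close the sterol ring also fell. Sqle, the squalene epoxidase that is a second control point, had 3.14, 3.15, 3.21 and 3.23 at SOL and 1.15, 1.11, 1.14 and 1.33 at PS, a difference of -2.001 ± 0.08 (adjusted p 3.84e-12). The squalene synthase Fdft1 differed by -2.17 and lanosterol synthase Lss by -2.28. Ggps1, which leads away from sterols to the geranylgeranyl lipids of proteins, differed by 0.49 and was not called, the one positive difference on the list.

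In the conversion of lanosterol to cholesterol, Dhcr7, the last reductase of one branch, had 5.68, 5.86, 5.72 and 5.74 at SOL and 3.36, 3.33, 3.31 and 3.35 at PS, -2.41 ± 0.05 (adjusted p 2.34e-15). The arrays of the sites were separated by many times their spread. Cyp51, the lanosterol demethylase, had 4.35, 4.36 and 4.38 on the 3 SOL arrays without an outlier spot and 1.83, 1.85, 1.83 and 1.57 at PS, -2.60 ± 0.09. Nsdhl (-2.47), Sc4mol (-2.07) and Sc5d (-1.97), which remove and oxidise groups of the sterol ring, fell too. Ebp, the sterol isomerase, was the smallest fall at -1.08, and it was not called at -0.99 without SOL replicate 1 or with normexp. Hsd17b7 (-0.81), Lbr (-0.47) and Tm7sf2 (-0.37) did not pass the limit on size.

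**Figure D3:**
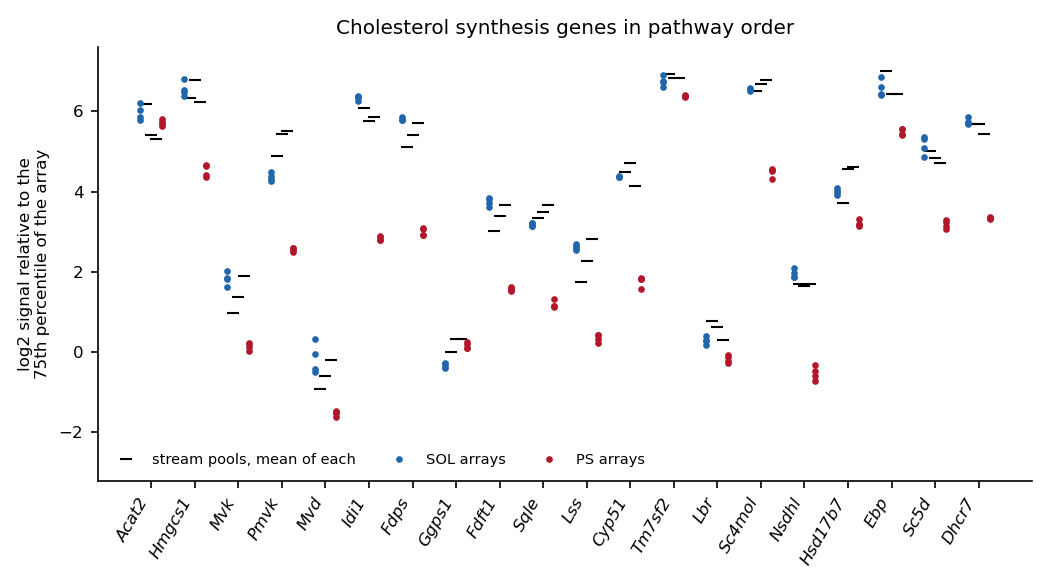
Levels (log2 signal minus the 75th percentile) of 20 of the 22 measured genes of cholesterol synthesis in pathway order, with SOL arrays in blue, PS arrays in red and the means of DR1, DR4 and DR6 as black dashes from left to right. In Idi1 the PS mean of 2.83 lies below those of SOL (6.34), DR1 (6.08), DR4 (5.76) and DR6 (5.85).

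Fdps, farnesyl diphosphate synthase, is shown with its probe sequences because its probes gave different sizes of change. The sequences come from the probe column of the deposited files with mm8 coordinates as the files give them, on the minus strand. The first probe, at chr3:89180817-89180957, crosses a junction between exons, as its 60 bases cover a span of 141, and is shown whole. The second, at chr3:89185031-89185090, is shown by its first 30 bases.
Fdps, brightest probe: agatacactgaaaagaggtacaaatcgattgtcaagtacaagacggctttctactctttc
Fdps, other probe: agggactgacaggtgggcacagagaatttt
The brightest probe had levels of 5.77, 5.78 and 5.86 on the 3 SOL arrays without an outlier spot and 3.098, 3.06, 2.92 and 2.92 at PS, a difference of -2.81 ± 0.08 (adjusted p 3.63e-12). The other probe was dimmer, with means of -1.08 at SOL and -1.95 at PS, and differed by -0.87 ± 0.08. Both probes were lower at PS on every array with a value. With the mean of the probes in place of the brightest, Fdps differed by -0.97 and was not called. This left 15 called genes on the list. On SOL replicate 4 the brightest probe was missing as an outlier, so the mean there held the dim probe alone, at -1.12. The value of -0.97 thus reflects that missing spot and does not measure the disagreement of the probes.

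The regulators and transporters of sterols held fewer calls. Of 26 measured genes of sterol sensing, uptake and export, 3 fell and none rose, beside 2.18% of all tested genes called lower. The median was -0.12. Stard4, a carrier of cholesterol between membranes, had 3.23, 3.23, 3.11 and 3.21 at SOL and 1.01, 0.91, 1.13 and 1.11 at PS, -2.16 ± 0.06 (adjusted p 1.57e-13). Npc1l1, which takes up sterol at the cell surface, differed by -2.01. The arrays of the sites did not overlap in either gene, and Npc1l1 lost its call with normexp. The SREBP-retaining protein Insig1 (-0.64) and the transcription factors Srebf2 (-0.50) and Srebf1 (-0.42) were not called. With the mean of all probes Insig1 differed by -1.08 and was called. The exporters Abca1 (0.15) and Abcg5 (-0.17) and Cyp7a1 (0.32), the rate-limiting enzyme of bile acid synthesis, were not called either.

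Fatty acid synthesis fell in part. Of 24 measured genes 9 fell and none rose, beside 2.18% of all tested genes called lower, and the median was -0.83. The median level was 2.65 at PS and 3.30 at SOL, but also 2.65 at DR4, so that PS was not lowest here. Against the stream mean 3 members were called lower at PS (3.19% of all tested genes) and none higher, with a median of -0.25. At SOL 3 were called higher (2.07%) and 1 lower (3.51%), with a median of 0.51. Thrsp, a protein of lipogenic tissue that follows thyroid hormone and carbohydrate, had 4.37, 4.46, 4.44 and 4.55 at SOL and 2.12, 2.18, 2.16 and 2.31 at PS, -2.27 ± 0.07 (adjusted p 5.01e-13). Fasn, the fatty acid synthase, had 5.35, 5.25, 5.38 and 5.40 at SOL and 3.47, 3.44, 3.59 and 3.62 at PS, -1.82 ± 0.08 (adjusted p 2.58e-11). In both genes the sites did not overlap. The elongases Elovl6 (-1.31) and Elovl5 (-1.17), the desaturase Fads2 (-1.37), the citrate lyase Acly (-1.23), the acetyl-CoA synthetase Acss2 (-1.05) and the liver pyruvate kinase Pklr (-1.14) fell. Fads1, a desaturase whose probe lies in the low patch, had 3.28, 5.47, 5.46 and 5.51 at SOL and 3.55, 3.66, 3.55 and 3.68 at PS. Its difference was -1.32 as measured and -1.86 without the patch. The carboxylase Acaca (-0.90) and the desaturase Scd1 (-0.88) stayed under the limit on size. With normexp 5 of the 9 calls were made, without those of Acly, Acss2, Pklr and Fads1.

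Other parts of hepatic lipid and sugar metabolism held few calls, beside 2.18% of all tested genes called lower. Of 38 measured PPARα targets and genes of fatty acid oxidation, 2 fell, with a median of -0.33. They were Pdk4 (-1.46), the kinase that holds back pyruvate oxidation in fasting, and Bdh1 (-1.003), a ketone body dehydrogenase that lay at the limit and was not called without SOL replicate 2, without PS replicate 4, with median or quantile scaling, or with the mean of all probes. Against the stream mean the 38 genes above had medians of 0.35 at PS and 0.63 at SOL. Of them 2 were called higher at PS (1.93% of all tested genes) and 9 at SOL (2.07%), and none lower at either. Of 20 genes of gluconeogenesis and glycolysis, 2 fell, with a median of -0.21. They were Pklr, given above, and G6pc (-1.26), the phosphatase that releases glucose, which stood at 6.84 at SOL and 5.58 at PS.

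Of 22 measured genes of bile acid synthesis and transport, 2 rose and 2 fell, with a median of 0.13. Over all tested genes 2.23% were called higher and 2.18% lower. Cyp8b1, which makes cholic acid, rose by 1.36. Slco1a1 (-1.54) and Slco1a4 (-1.22), which import bile acids and other anions, fell. The repressor Nr0b2 was called at 1.10, but its probe lies in the low patch, and it differed by 0.50 with no call when the patch was set missing or SOL replicate 1 left out, and its call was also lost without any 1 of the PS arrays. Apob, the protein of the lipoproteins that the liver secretes and the one hepatocyte marker that fell, differed by -1.98 on its brightest probe. Mogat1, a monoacylglycerol acyltransferase, rose, from -0.75, -1.14, -0.99 and -1.004 on the SOL arrays to 1.17, 1.20, 1.14 and 1.09 on the PS arrays, with a difference of 2.12 ± 0.08.

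Car3, carbonic anhydrase 3, had the largest fall of the genes measured above background at both sites. Its levels were 3.76, 3.91, 3.85 and 3.73 at SOL and -0.08, -0.09, 0.01 and -0.21 at PS, with no overlap. The difference was -3.91 ± 0.08, 15-fold, with an adjusted p of 2.99e-15. The stream means of 3.12, 2.35 and 1.99 lay between the sites and nearer to SOL. Car3 is abundant in adipose tissue and muscle as well as in male liver, and was counted on the lists for phosphate, calcium and vitamin D handling and for adipose tissue. Its probes, both on the plus strand of mm8, are shown by their first 30 bases because they gave different changes. The brightest lies at chr3:14848525-14848584 and the other at chr3:14841475-14841534.
Car3, brightest probe: acatgcaaccgcagtgccttttgacatgat
Car3, other probe: ggctttctgaccaccgagagacaacgtttt
The other probe was dim, with means of -2.997 at SOL and -3.59 at PS, and its difference of -0.59 ± 0.36 was under 2 SE. Of 12 measured adipose and mesothelium markers Car3 and Ucp1 (-1.35) fell, beside 2.18% of all tested genes, with a median of -0.35. Ucp1 was not called with normexp. The part of these markers in the fall of lipid genes was not tested.

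The acute phase showed single large rises rather than a shift of the list. Of 34 measured genes 5 rose and none fell, beside 2.23% of all genes called higher, and the median was 0.15. A2m, the protease inhibitor α2-macroglobulin, had -2.17, -2.43, -2.31 and -2.28 at SOL and 1.502, 1.54, 1.54 and 1.54 at PS, 3.82 ± 0.08, 14.2-fold (adjusted p 2.64e-15). Every PS array lay above every SOL array by over 3 log2 units, and its other probe was above background on all PS arrays and on no SOL array. Saa3, a serum amyloid A made by macrophages and other cells, had 6.04, 6.30, 6.12 and 6.24 at SOL and 8.15, 8.22, 8.38 and 8.55 at PS, 2.15 ± 0.08. Hamp1, the iron hormone hepcidin that also follows interleukin 6, rose by 1.20. Apcs (1.19) and Orm1 (1.12) have their probes in the low patch and differed by 0.63 and 0.87 without it, with no call, which left 3 rises. Of 41 genes of complement and coagulation 1 fell, beside 2.18% of all tested genes, and the median was -0.01.

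The murinoglobulins Mug1 and Mug2, protease inhibitors related to A2m, rose. Mug2 had 2.61, 2.55, 2.45 and 2.46 at SOL and 4.63, 4.66, 4.66 and 4.61 at PS, 2.12 ± 0.05, with no overlap. Mug1, whose probe lies in the low patch, differed by 2.39 as measured and by 1.86 without the patch, and was called both ways. The probes of these related genes may share targets, so the genes cannot be taken as separate.

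Interferon-induced genes rose in a subset. Of 40 measured 7 rose and none fell, beside 2.23% of all genes called higher, and the median was 0.39. Against the stream mean 9 were called higher at PS (1.93% of all genes) and none lower. At SOL 1 was called higher (2.07%) and 2 lower (3.51%). Tgtp, a GTPase induced by interferon gamma, had 2.40, 2.35, 2.45 and 2.27 at SOL and 4.38, 4.40, 4.39 and 4.23 at PS, 1.98 ± 0.08 (adjusted p 1.70e-11). Oas1a, an activator of RNase L, differed by 1.58, Ifi27 by 1.30, the transcription factor Irf7 by 1.21 and the ubiquitin-like Isg15 by 1.11. The antiviral Rsad2 (1.23) and Ifit1 (1.16) have their probes in the low patch. Without it Rsad2 differed by 1.10 and stayed called, and Ifit1 by 0.94 and did not. With normexp 2 of the 7 calls were made, those of Tgtp and Ifi27. None of 16 measured MHC genes was called, with a median of 0.07. Trim12, a TRIM protein, rose by 2.45 ± 0.16, with -2.54, -2.30, -2.73 and -2.85 at SOL and -0.08, -0.25, -0.17 and -0.11 at PS.

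Some lymphocyte genes were higher at PS. Of 9 B and plasma cell genes measured out of 17 listed 4 rose, with a median of 0.87. Of 21 T and NK cell genes measured out of 28 listed 2 rose, with a median of 0.52. Over all tested genes 2.23% were called higher. A gene was measured where 3 arrays of any 1 of the 5 sites were well above background. At SOL 1 of the 9 and 3 of the 21 were above background on no array, and at PS 0 of either. These counts and medians thus partly restate the filter and describe only the genes that passed it. Cd79b, a signalling chain of the B cell receptor, had -2.94, -3.46, -3.15 and -2.92 at SOL and -1.32, -1.32, -1.23 and -1.41 at PS, 1.80 ± 0.11. Igj, the joining chain of secreted antibodies, rose by 1.51, the B cell coactivator Pou2af1 by 1.15, and Faim3, a receptor of B cells, was at least 1.43-fold higher. Igh-VJ558, an immunoglobulin heavy chain with 10 probes, differed by 2.002 on the brightest and by 0.91 on the mean of all probes, where it was not called. Ms4a1 (0.87) and Igh-6 (0.84), other B cell genes, were not called. The chemokine Ccl5 (1.03) and the NK receptor Klrb1c, at least 1.21-fold higher, made up the calls of the T and NK list, and Ccl5 was not called at 0.99 without SOL replicate 4. With normexp 1 of the 4 B cell calls and neither T and NK call was made.

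Genes of alternatively activated macrophages moved in both directions. Of 12 measured 3 rose and 1 fell, beside 2.23% of all tested genes called higher and 2.18% lower, with a median of 0.20. At SOL 2 of the 12 were above background on no array, and these passed the filter through a brighter site. The chitinase-like proteins Chi3l3 and Chi3l4 were not well above background on any SOL array and were on all PS arrays. Chi3l3 had -4.69, -4.18, -4.81 and -4.96 at SOL and 0.50, 0.52, 0.48 and 0.31 at PS, at least 24.7-fold higher, and Chi3l4 was at least 5.96-fold higher. The stream means of Chi3l3, -0.40, 1.38 and -3.25, lay on both sides of its PS mean of 0.45, so PS was not the highest site. Retnla, a secreted protein of macrophages and airway, rose by 2.27. The haemoglobin scavenger receptor Cd163 fell, with 0.36, 1.80, 1.63 and 1.77 at SOL and -0.82, -0.79, -0.68 and -0.50 at PS. Its probe lies in the low patch, and its difference was -2.09 as measured and -2.43 without it. Of 18 Kupffer cell markers Folr2 (1.42) rose and Cd163 fell, with a median of 0.13. Chi3l4, Retnla and Folr2 were not called with normexp.

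Derl3, a protein of the endoplasmic reticulum (ER) membrane that passes misfolded proteins to degradation and is on no list here, had one of the large rises. Its levels were -1.19, -1.15, -1.55 and -1.19 at SOL and 1.89, 1.93, 1.80 and 1.78 at PS, 3.12 ± 0.09, 8.72-fold (adjusted p 6.05e-14). Its stream means were -0.95, -0.33 and -1.37, all nearer to SOL. Of 29 genes of ER stress and the amino acid response 2 rose, beside 2.23% of all tested genes, with a median of 0.24. Sdf2l1, a chaperone partner in the lumen, differed by 2.03, and by 1.45, still called, without the low patch that holds its probe. The pseudokinase Trib3 rose by 1.08, and its call was lost with normexp and with the mean of all probes. Of 22 heat shock genes 1 rose, Hspb1 (1.79), the small heat shock protein, with a median of -0.11.

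Metal and iron genes moved singly. Of 22 measured genes of metal handling 1 rose and 1 fell, with a median of -0.07. Over all tested genes 2.23% were called higher and 2.18% lower, so 1 call each way is no result about the list. Metallothionein 1, Mt1, binds zinc, cadmium and copper and rises with metals, glucocorticoids and inflammation. Its probes, on the plus strand of mm8 at chr8:97069240-97069299 and chr8:97069073-97069132, are shown by their first 30 bases because only the first showed a change.
Mt1, brightest probe: cctgctgtcccgtgggctgctccaaatgtg
Mt1, other probe: aactggctctgagaaatgtcctttgcttcc
The brightest probe had 4.85, 4.52, 4.78 and 4.80 at SOL and 6.16, 6.07, 6.10 and 6.04 at PS, a difference of 1.36 ± 0.11 (adjusted p 7.33e-08), with no overlap. The other probe had means of 1.06 and 1.13, a difference of 0.07 ± 0.06, and with the mean of the probes Mt1 differed by 0.71 and was not called. Mt2, its neighbour in function, differed by 0.88 and was not called. The zinc importer Slc39a5 fell by 1.72, a gene also known from the exocrine pancreas. Of 25 iron genes Hamp1, given above, rose and the transferrin receptor Tfrc (-1.25) fell, with a median of 0.10. Tfrc and Slc39a5 were not called with normexp.

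The genes that respond to oxidants and to foreign chemicals were mostly not called, beside 2.23% of all tested genes called higher. Gpx3, the glutathione peroxidase of plasma, was the single rise among 26 antioxidant enzymes, whose median was -0.01. It had -2.34, -2.42, -2.38 and -2.16 at SOL and 0.55, 0.61, 0.44 and 0.66 at PS, 2.89 ± 0.13 (adjusted p 4.42e-11). The stream pools ran from -1.22 at DR1 and -0.53 at DR6 to 2.59 at DR4, so that PS lay within their range. Of 28 NRF2 targets 2 rose, the aldo-keto reductases Akr1b8 (1.64) and Akr1b7 (1.98), with a median of -0.12, while Nqo1 (0.27) and Hmox1 (0.09), the usual markers of this response, were not called. None of 8 AHR targets was called, with a median of -0.05, and the classic ones, Cyp1a1 (0.73) and Cyp1a2 (0.71), stayed under the limit on size.

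Of 32 CAR and PXR targets 1 rose and 3 fell, with a median of -0.33. Over all tested genes 2.23% were called higher and 2.18% lower. The sulfotransferase Sult1d1 (1.44) rose, and Cyp2c55 (-1.21), Aldh1a7 (-1.13) and Cyp2b13 (-1.05) fell. Cyp2b10 (0.11) and Cyp3a11 (-0.42), the usual readouts of these receptors, were not called. Of 48 conjugation enzymes 3 rose and 2 fell, with a median of -0.11. Ugt2b35 (3.26, above background on 1 SOL array) and Sult1e1, the oestrogen sulfotransferase at least 1.94-fold higher, rose beside Sult1d1, and Ugt2b1 (-1.35) and Sult1c2 (-1.13) fell. Of these calls those of Cyp2c55, Cyp2b13, Ugt2b35, Sult1e1 and Sult1c2 were lost with normexp.

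Genes that differ between the sexes moved both ways in these male pools, beside 2.23% of all tested genes called higher and 2.18% lower. Of 19 male-biased genes 3 rose and 2 fell, with a median of 0.18, and of 24 female-biased genes 1 rose and 3 fell, with a median of -0.18. Mup5, a major urinary protein, had 3.32, 3.68, 3.70 and 3.80 at SOL and 6.22, 6.26, 6.28 and 6.31 at PS, 2.64 ± 0.11, and 2.54 without the low patch. Mup4, saturated on the PS arrays, was at least 3.50-fold higher. The fatty acid hydroxylase Cyp4a12 rose by 1.97, while the male-biased Slco1a1 and Ugt2b1, given above, fell. With the mean of all probes 5 male-biased genes rose. Of 6 urinary proteins and lipocalins 2 rose, with a median of 0.74. With the mean of all probes 4 rose, Mup1 and Mup3 added, with a median of 1.73, and with normexp the median was 0.32. Their median level was 7.34 at PS and 5.28 at SOL, and 7.21 to 7.58 in the stream pools, so that SOL stood apart. Mup probes can bind several of the near-identical genes, so the members are uncertain. Among the female-biased genes Hao3, a hydroxy acid oxidase, fell from 2.88, 2.66, 2.86 and 2.69 to 0.69, 0.55, 0.61 and 0.46, a difference of -2.19. The female-biased calls of A1bg, Cyp2b13 and Ntrk2 were lost with normexp. A1bg was at least 1.79-fold lower, Cyp2b13 fell as given above, and Ntrk2 was at least 1.37-fold higher. Of 16 genes of the growth hormone and IGF axis 1 fell, the repressor Bcl6 (-1.25), with a median of 0.03.

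Retinoid, glucocorticoid and thyroid hormone genes held 1 call each way on each list, beside the 2.23% and 2.18% of all genes called higher and lower. Cyp26a1, the hydroxylase that destroys retinoic acid and is induced by it, was not well above background on any SOL array. It had -4.48, -4.06, -4.40 and -4.78 at SOL and -1.18, -1.13, -1.22 and -1.35 at PS, at least 7.77-fold higher, and the stream means were -0.88, 0.03 and -1.94. The reductase Rdh11, which is also a sterol-responsive gene, fell by 1.45, and the 20 retinoid genes had a median of -0.17. Of 20 glucocorticoid-responsive genes Mt1, whose call the mean of probes ended, rose and Serpina6 (-1.34), the corticosteroid carrier, fell, with a median of 0.12. Of 9 thyroid-responsive genes Hr, not well above background on any SOL array, rose and Thrsp fell, with a median of -0.25. Cyp26a1 and Hr were not called with normexp.

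Clock genes were called 3 times among 17, beside 4.42% of all tested genes called, with a median of -0.15. Cry1, a repressor of the core loop, fell by 1.42. Cry1 and Nr1d1 were not called with normexp. The output factor Dbp (1.12) and the nuclear receptor Nr1d1 (1.01) were called higher. Without the low patch Dbp differed by 0.72 and was not called, and Nfil3, the repressor that opposes it, differed by -1.14 and was called lower, against -0.43 as measured. Without SOL replicate 1 none of the 17 was called higher and 2 lower. Nr1d1 lay at the limit and was not called at 0.99 without SOL replicate 1, at 0.98 without SOL replicate 4 or without PS replicate 1.

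Growth and damage genes showed few calls, beside 2.23% of all tested genes called higher and 2.18% lower. Of 32 cell cycle genes 1 rose and 3 fell, with a median of -0.26. The replication helicase subunit Mcm5 (-1.44) and cyclin D1, Ccnd1 (-1.09), fell, the ribonucleotide reductase subunit Rrm2 was at least 1.95-fold lower, and the mitotic kinase Aurkb was at least 1.91-fold higher. None of these 4 was called with normexp, and Rrm2 was not called at -0.96 without PS replicate 4. Of 31 p53 targets and genes of DNA damage 1 fell and 1, Brca1, was called higher where neither site was above background, and the median was 0.22. Of 22 immediate early genes 1 fell, the phosphatase Dusp6 (-1.14), with a median of -0.02. Against the stream mean 11 of these 22 were called lower at PS (3.19% of all tested genes) and 12 at SOL (3.51%). The medians were -1.01 and -1.16. Of 17 listed erythroid markers 9 were measured and none was called between PS and SOL, with a median of -0.05. Against the stream mean 5 were called higher at PS (1.93% of all tested genes) and 5 at SOL (2.07%). Those 2 comparisons share the stream arrays. A marker was measured where 3 arrays of any 1 site were well above background, so the counts may partly restate this filter.

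In amino acid metabolism, of 44 genes Cth (1.15), which makes cysteine, and Sdsl (1.05), a serine dehydratase, rose and Phgdh (-1.84), the first enzyme of serine synthesis, fell, with a median of 0.13. With median scaling 4 of the 44 rose. In the main fit 2.23% of all tested genes were called higher and 2.18% lower. Sdsl was not called at 0.99 without SOL replicate 3, and Phgdh was not called with normexp. Of 30 collagen and matrix genes Col6a3 was at least 2.70-fold lower, with a median of -0.08. Of 19 genes of phosphate, calcium and vitamin D handling 2 rose and 2 fell, with a median of -0.02. The phosphate hormone Fgf23 rose by 1.77 and the phosphate transporter Slc34a1 was at least 1.39-fold higher, while the transporter Slc34a2 (-1.26) fell beside Car3. Of these, Car3 alone was called with normexp.

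No member was called on the lists of oxidative phosphorylation (55 genes, median -0.09), ribosomal proteins (49, 0.12), stellate cells (15, -0.02), endothelium (16, 0.03), cholangiocytes (11, -0.19) and neutrophils (10, 0.22). The highest and lowest differences among the 55 oxidative phosphorylation genes were 0.65 and -0.45. Of 18 muscle genes the fast myosin Myh4 rose by 1.81, with a median of 0.20. As 4.42% of all tested genes were called, lists of this size would hold few calls in any case.

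**Figure D4:**
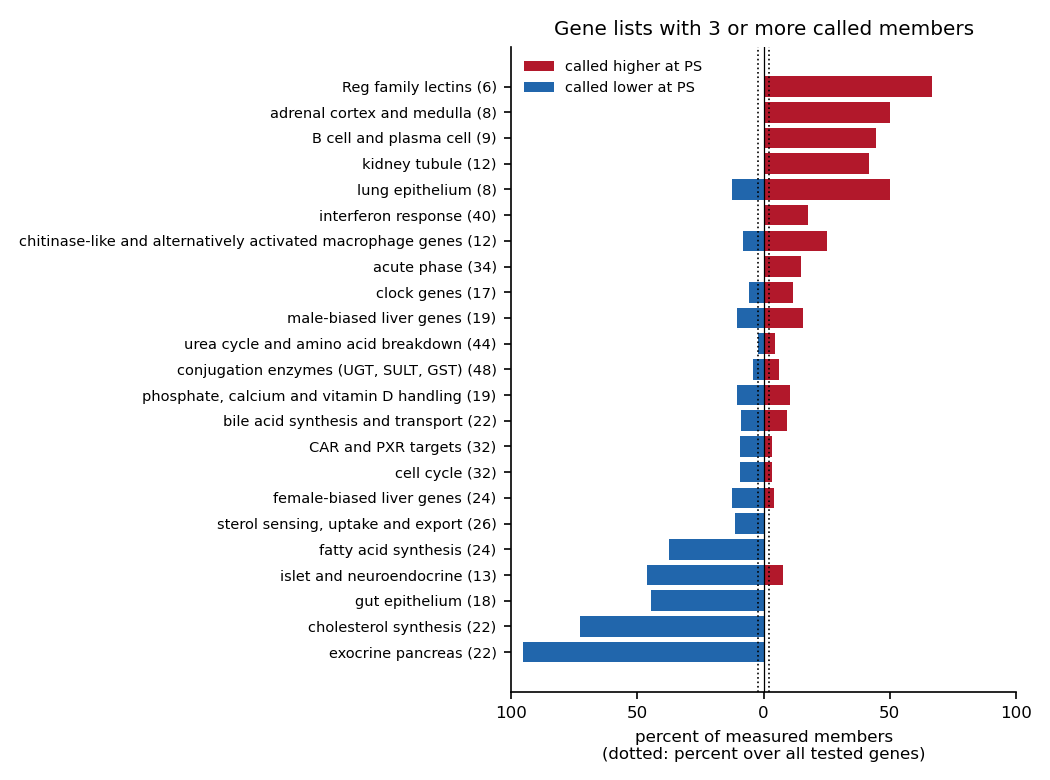
Percent of the measured members of each list that were called higher or lower at PS, for the lists with at least 3 called members, with dotted lines at the 2.23% and 2.18% of all tested genes called higher and lower. Exocrine pancreas (21 of 22 lower) and cholesterol synthesis (16 of 22 lower) have the highest shares.

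Genes of other organs differed between the pools, and those of the exocrine pancreas the most. A listed gene counts as measured where 3 arrays of any of the 5 sites were well above background, so a gene dim at PS or SOL entered through a site where it was brighter. The counts and medians of the dim lists that follow, islet, gut, Reg, kidney, adrenal and lung, partly restate this filter and describe only the genes that passed it. Acinar cells of the pancreas, and not hepatocytes, make the digestive enzymes on this list. Of 28 listed 22 were measured, all above background at both sites, and 21 fell, beside 2.18% of all tested genes. Their median was -2.02, with a range from -2.47 to -0.999. The elastase Ela2a had 4.43, 4.44, 4.34 and 4.33 at SOL and 1.86, 1.87, 1.96 and 1.98 at PS, -2.47 ± 0.05 (adjusted p 2.64e-15). The pancreatic lipase Pnlip had 8.13, 8.02, 7.96 and 7.99 at SOL and 5.83, 5.84, 5.86 and 5.82 at PS, -2.19 ± 0.05. The arrays of the sites were far apart in both. The mean levels of the 22 genes ran from 1.36 to 8.38 at SOL and from -0.90 to 6.65 at PS. Cel, the bile salt-stimulated lipase (-2.40), Ela1 (-2.27), Prss2, a trypsinogen (-2.16), and Cuzd1 (-2.26) fell alike, and Reg1 (-0.999) missed the limit. Aqp12, a water channel of acinar cells, and Rbpsuhl, a subunit of the acinar transcription factor PTF1, were not on the list and differed by -2.43 and -2.38, both called. With normexp all 21 list calls were made, and those of Aqp12 and Rbpsuhl were not.

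The pancreas genes did not follow the order of sites seen in cholesterol synthesis. Their median level was 6.35 at DR6, 6.18 at SOL, 5.47 at DR1, 4.17 at PS and 3.01 at DR4. DR4 was thus the lowest pool for pancreas genes, while its median for cholesterol synthesis, 4.77, was above that of SOL. Against the stream mean 2 pancreas genes were called lower at PS (3.19% of all tested genes) and 19 higher at SOL (2.07%). Beyond these values, the part of pancreas RNA in the other results was not tested.

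Hormone genes of the islets were among those lower at PS as well, beside 2.18% of all tested genes called lower. Of 13 measured islet and neuroendocrine genes, out of 20 listed, 6 fell and 1 rose, with a median of -0.81. In 1 of the falls, Pcsk1, neither site was above background. Ins2, an insulin gene, had 0.14, -0.14, -0.01 and -0.06 at SOL and -3.17, -2.93, -3.201 and -3.38 at PS, -3.15 ± 0.11, and Ins1, above background on 1 PS array, differed by -2.59. Glucagon, Gcg, was at least 6.06-fold lower, Sst, somatostatin, at least 2.91-fold and Ppy, pancreatic polypeptide, at least 1.32-fold, with none of the 3 above background on a PS array. Of the islet genes 5 were above background on no PS array and 2 on no SOL array. Gut genes fell too. Of 18 measured out of 30 listed 8 fell, with a median of -0.70 that was -0.19 with normexp. Of the 18, 7 were above background on no PS array and 1 on no SOL array. The trefoil peptides Tff2 (-2.66) and Tff1 (at least 2.10-fold), the Paneth cell defensins Defa1 (at least 3.02-fold), Defcr6 (at least 2.06-fold) and Defcr4 (at least 1.38-fold), the mucus-cell disulfide isomerase Agr2 (at least 2.92-fold), the chemokine Ccl28 (at least 2.61-fold) and the brush border protein Vil1 (-1.82) were lower at PS. Clca3, a goblet cell protein outside the list, was at least 3.01-fold lower. With normexp 1 fall remained called on each of the islet and gut lists, that of Ins2 and that of Tff2.

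The Reg lectins, secreted by pancreas and gut and also by injured liver, moved apart from each other. Of 6 measured 4 rose, beside 2.23% of all tested genes called higher, with a median of 1.82. The median was 0.76 with normexp. The probes of 2 of the 6 lie in the low patch, and without it 4 rose, with a median of 1.87. At SOL 2 of the 6 were above background on no array, and at PS 1, so the count and median partly restate the filter. Reg1, also on the pancreas list, differed by -0.999 and was called lower with quantile scaling, and Reg3g, above background at neither site, differed by -0.17. For the 6 genes the median against the stream mean was -0.17 at PS and -2.49 at SOL, where 5 were called lower (3.51% of all tested genes). Reg3a, above background on 2 of the SOL arrays, had -4.21, -4.06, -3.997 and -3.94 at SOL and -0.40, -0.38, -0.47 and -0.31 at PS, 3.66 ± 0.08 (adjusted p 6.12e-15). Pap, known also as Reg3b, had -0.37, -0.01, -0.41 and -0.35 at SOL and 2.49, 2.52, 2.28 and 2.20 at PS, 2.66 ± 0.09. Neither overlapped between the sites. Reg2 rose by 1.20 and Reg3d was at least 1.99-fold higher, the only one of the 4 not called with normexp.

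Some kidney and adrenal genes were higher at PS, beside 2.23% of all tested genes called higher. Of 12 kidney tubule genes measured out of 18 listed 5 rose, with a median of 0.47 and median levels of -2.61 at SOL and -1.37 at PS. Kap, the androgen-regulated protein of the proximal tubule, had -5.39, -6.16, -6.52 and -6.56 at SOL and -0.77, -0.86, -0.73 and -0.78 at PS. It was above background on all PS arrays and on no SOL array, at least 10.5-fold higher, and the stream means of -6.06, -5.98 and -6.11 were near that of SOL. The mean levels of the 12 genes ran from -6.16 to 1.60 at SOL, where 4 were above background on no array, and from -3.79 to 2.13 at PS, where every one was on at least 1 array. Against the stream mean 6 of the 12 were called higher at PS (1.93% of all tested genes) and none at SOL (2.07%). Umod, the uromodulin of the loop of Henle, above background on 1 SOL array and 4 PS arrays, was called higher with a fitted difference of 2.24 that sets PS mostly against background, Napsa, a protease of kidney and lung, rose by 1.74, Cdh16, the kidney cadherin, was at least 2.40-fold higher, and Slc34a1 is given above. Slc22a6 (-0.45) and Slc22a8 (-0.04), organic anion transporters of the tubule, were not called. With normexp only the call of Kap remained among the 5.

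Of 8 adrenal genes measured out of 13 listed 4 rose, beside 2.23% of all tested genes, with a median of 1.33. Star, which brings cholesterol to the steroid-making enzyme, had -2.68, -2.67, -2.51 and -2.62 at SOL and -0.40, -0.38, -0.35 and -0.54 at PS, 2.20 ± 0.08, and Cyp11a1, that enzyme, was at least 2.16-fold higher. Akr1b7, given above, is the third. Chgb, a granin of hormone-secreting cells that is also on the islet list, had -4.72, -4.13, -4.22 and -4.28 at SOL and 1.48, 1.45, 1.41 and 1.40 at PS, at least 46.6-fold higher. It was above background on no SOL array, and its stream means ran from -4.30 to -0.27. The mean levels of the 8 adrenal genes ran from -5.84 to 1.84 at SOL, where 2 were on no array above background, and from -3.07 to 3.81 at PS, where all were. Lung genes were mixed, with 4 of 8 higher and 1 lower, beside 2.23% and 2.18% of all tested genes, and a median of 0.74. At SOL 3 of the 8 were above background on no array, and at PS 0. Against the stream mean 1 was called higher at PS (1.93% of all tested genes) and 1 lower (3.19%), with a median of -0.37. At SOL 3 were called lower (3.51%) and none higher, with a median of -0.48. Sftpc (at least 1.94-fold), Sftpd (at least 1.87-fold) and Scgb3a1 (at least 2.23-fold), secreted by alveolar and airway cells, and Napsa rose, and the water channel Aqp5 (-1.53) fell, and none of the 5 was called with normexp. The part of these organs in the other results was not tested.

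**Figure D5:**
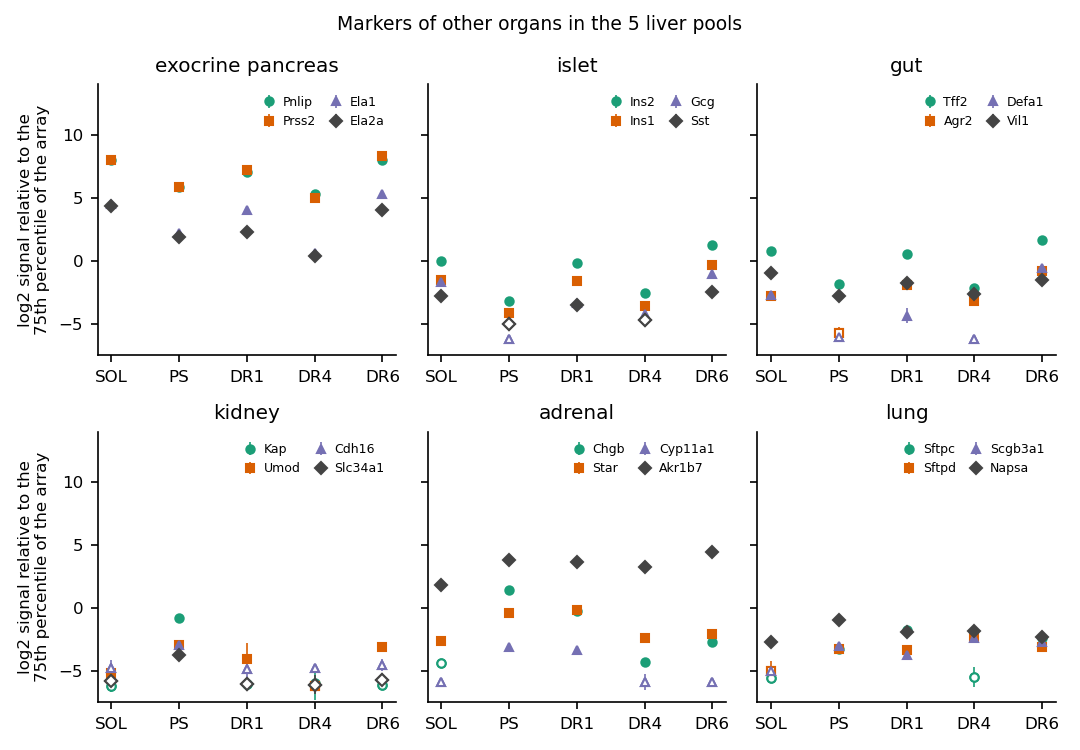
Levels (log2 signal minus the 75th percentile, mean ± SD of the arrays of a site) of 4 markers each of pancreas, islet, gut, kidney, adrenal and lung at SOL, PS, DR1, DR4 and DR6, with open symbols where a gene was well above background on no array of the site. Pancreas genes are lowest at DR4, while Kap stands out at PS alone.

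A few more genes with large differences lay outside the lists. Rchy1, a ubiquitin ligase that acts on p53, had 0.80, 0.84, 0.69 and 0.69 at SOL and -1.60, -1.83, -1.65 and -1.76 at PS, -2.46 ± 0.07. Its arrays did not overlap. Xlr4b, of a family of X-linked lymphocyte-regulated genes, was at least 6.84-fold higher, Rnf183, a RING finger protein, at least 5.60-fold and Myo15b, a myosin, at least 3.30-fold. The PS arrays of Rnf183 were spread widely, at -3.18, -2.74, -0.82 and -0.03. The cadherin Cdh11 was at least 5.89-fold lower, Casc4 at least 5.10-fold and the connexin Gja12 at least 2.78-fold. Of these, only Rchy1 was called with normexp. Of 129 called genes with several probes above the filter, 119 had all probes on the same side of 0 and 78 had all past 2-fold.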

How the data were processed

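Pooled liver RNA was measured on one-colour Agilent mouse arrays of 45018 spots. Each site is 1 pool with repeat arrays, per the labels. The deposited scanner files give a linear intensity per spot, per the file headers. The submitters' processing notes name Agilent Feature Extraction 9.5.3.1, with which the authors subtracted background. The flags for control, outlier, saturated and well-above-background spots are other deposited columns of 0 or 1, per the file headers. The deposited value table holds the same intensity, with a largest relative difference of 0.497% and column medians from 10.8 to 27.5. Gene names are those of the files, with mm8 annotation; on the DR1 slide, of an older design, 5.84% of spots carry another name and took the newer one.

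Control spots (1639) were left out and 43379 gene spots of 41174 probes kept. Outlier spots were set missing, log2 signals were centred on the 75th percentile of each array, and a probe needed 3 arrays of 1 site well above background to be kept (23458 probes), with the brightest taken per gene (16346 genes, 11881 with a symbol). Site means were estimated from all 19 arrays in 1 model (limma 3.58.1, R 4.3.3), with Benjamini-Hochberg adjustment over all tested genes and two-sided tests. The fit was tested on simulated data. Members and the 54 gene lists were chosen with earlier results of these data known. Named genes are the 15 largest differences each way, the 8 largest bounds each way, up to 6 called members per list and a list of set genes; other members were named after their values were seen. Alternatives were the scaling, background correction, filter, probe rule, value table, replicate block and leaving out each array. The low patch of 1 array was set missing as an alternative chosen after the data were seen. Replicate numbers are positions on the slide. Same-numbered PS and SOL arrays deviated together with correlations of 0.06, 0.03, 0.11 and 0.14, and differently numbered ones with -0.11 to 0.07. Small effects of position are thus possible. The numbers were not taken to pair arrays in the main fit, and 725 genes were called with the replicate number as a block. The number of arrays limits the precision. Some genes of the lists and of the naming rule enter the counts but are not reported here by name.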

Additional observations from a re-analysis of the deposited data

Results flagged for a closer look

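Of 310 sets of 4 arrays of a named gene at 1 site, 22 (7.10%) held an array whose gap to the nearest other array took most of the range of the set, where chance gives about 1 in 20. The levels are log2 signals minus the 75th percentile of the array, with the range of the other 3 arrays behind each.

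SOL replicate 1 was the low array in 8 genes, all higher on the other SOL arrays: Sdf2l1 (-0.91 against 1.29 to 1.61), Mug1 (1.64 against 3.65 to 3.93), Fads1 (3.28 against 5.46 to 5.51), Nr0b2 (-1.22 against 1.08 to 1.27), Apcs (-0.91 against 1.22 to 1.47), Orm1 (3.83 against 4.75 to 4.92), Dbp (1.07 against 2.59 to 2.81) and Cd163 (0.36 against 1.63 to 1.80). The probes of these 8 genes lie in the low patch of that array. Irf7, whose probe does not, stood apart on the same array at -0.0693 against -0.39 to -0.35.

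SOL replicate 2 stood apart in Pap (-0.00765 against -0.41 to -0.35) and Cyp7a1 (3.04 against 3.25 to 3.29). SOL replicate 3 stood apart in Derl3 (-1.55 against -1.19 to -1.15), Stard4 (3.11 against 3.21 to 3.23) and Aurkb (-3.94 against -4.35 to -4.31). PS replicate 4 stood apart in Tgtp (4.23 against 4.38 to 4.40), Cyp51 (1.57 against 1.83 to 1.85), Dusp6 (3.48 against 3.59 to 3.605), Cuzd1 (-1.002 against -0.88 to -0.86), Srebf1 (2.69 against 2.78 to 2.78), Sqle (1.33 against 1.11 to 1.15) and Cyp3a11 (8.29 against 8.15 to 8.17). PS replicate 3 stood apart in Abca1 (2.86 against 3.07 to 3.09). In Sqle, Cyp51 and Stard4 these gaps were far smaller than the difference between the sites.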

How the results depend on the processing

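With normexp background correction and quantile scaling, 196 genes were called between PS and SOL, 84 higher and 112 lower, 178 between PS and the stream mean (838 otherwise) and 260 between SOL and the stream mean (912 otherwise). The method adds an offset of 50 to each signal, which lowers the differences of dim genes. With the adjusted p alone and no limit on size, 5364 genes (32.8%) passed. The other settings gave 680 to 880 calls between PS and SOL, 880 of them with no filter on dim probes. Leaving out 1 array in turn gave 701 to 759 calls, 352 to 401 higher and 342 to 378 lower, 822 to 841 for PS and 906 to 975 for SOL against the stream mean. With the replicate block, 725 genes were called, 369 higher and 356 lower, 834 for PS and 928 for SOL against the stream mean. None of the 146 called genes chosen by the naming rule changed sign under any setting, but list medians near 0 did, such as those of metal handling (-0.07, and 0.02 with median scaling) and erythroid markers (-0.05, and 0.17 with the mean of all probes). Of the calls 50.6% were higher at PS, but 59.4% with median scaling, 56.8% with quantile scaling, 42.9% with normexp and 48.4% without the low patch. Of these 146 genes, 79 were not called under at least 1 setting, 19 of them under one other than normexp and 11 when 1 array was left out. Those 11 were Nr0b2, Apcs, Orm1, Ifit1 and Dbp, without SOL replicate 1, and Bdh1, Rrm2, Nr1d1, Sdsl, Ccl5 and Brca1, which lay near the limit. With 1 pool per site, no setting tests the spread between mice. Where a gene was not above background at 1 site, its fitted difference is no bound, and the fold given as "at least" is what the arrays support.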
